A study of Saccharomyces cerevisiae with 7 samples.

Results

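The Sur7 family and eisosome membrane proteins are a set of 9 yeast genes: the eisosome scaffold genes PIL1 and LSP1, the tetraspan membrane protein genes SUR7, FMP45, YNL194C and PUN1, the related membrane protein genes NCE102 and FHN1, and YDL218W. They were found among 5656 genes by symbol or systematic name, through probe sets that the platform annotation lists for 1 gene only. Where a gene has several probe sets, 1 is selected on the highest mean log2 intensity over the arrays. Each of the 9 genes had 1 probe set, so this choice decided nothing. The rule used no difference between groups, but the 9 genes were chosen with earlier results of these data known. All 9 passed the filter on low values, an intensity above 12 on at least 2 of the 7 arrays.

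Transcripts were measured on one-colour Affymetrix yeast arrays. The cells were Saccharomyces cerevisiae CEN.PK113-7D, a haploid laboratory yeast of mating type a, kept in chemostats, in which the inflow of 1 scarce nutrient fixes how fast cells grow. Galacturonic acid, a sugar acid released from pectin, was present at 10 g/l in the cultures behind 2 arrays, and galactose at 0.23 g/l in those behind 2 more. The 3 control arrays came from cultures with neither. All cultures were grown with air at 30 °C and pH 3.5 under glucose limitation (7.5 g/l glucose supplied, dilution rate 0.1 per hour). On the galactose arrays the source name gives galacturonic acid at the galactose dose, whereas their title, description and treatment give galactose, and these were followed. Whether arrays of a group stem from separate cultures is not stated, so p-values measure only the spread between these arrays, whose small number limits how precise any value is.

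Eisosomes are stable protein assemblies under furrows of the yeast plasma membrane. Their scaffold is built from the banana-shaped BAR domain proteins Pil1 and Lsp1, which bind and bend the membrane. The membrane over the scaffold, called the membrane compartment of Can1, collects the tetraspan proteins Sur7, Fmp45, Ynl194c and Pun1, the sphingolipid-responsive protein Nce102 with its paralog Fhn1, and several proton-coupled transporters. The kinases Pkh1 and Pkh2 phosphorylate the scaffold proteins, and Nce102 acts as a negative regulator of these kinases.

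The galactose arrays stood apart from the other 5, array 2 far more than array 1. Their titles carry codes that start with MA, and those of all control and galacturonic acid arrays codes that start with EH. What these codes stand for is not stated, and any difference that goes with them cannot be told apart from galactose. Over the tested genes, Pearson r of log2 values with the other 5 arrays was 0.867 to 0.911 for galactose array 1. For galactose array 2 it was 0.657 to 0.732, while galacturonic acid and control arrays had 0.905 to 0.930 between them. A second control gene, SPT15, had a 3' to 5' signal ratio of 2.76 on galactose array 1, 124 on array 2, and 1.66 to 2.75 in control. The ratio of 3' to 5' signal of ACT1 (actin), read by control probe sets, was 1.34 and 1.33 on the galacturonic acid arrays, 19.8 and 306 on galactose arrays 1 and 2, and 1.07 to 1.23 on the control arrays. Across the 5220 genes tested, replicate arrays had a median SD on the log2 scale of 0.17 with galacturonic acid, 0.52 with galactose and 0.30 in control. The median log2 difference from control over all tested genes was -0.01 with galacturonic acid and 0.22 with galactose, and scaling to the 75th percentile brought the galactose value to 0.11. Where in each gene the probes of the 9 probe sets lie is not used here, so the part of this 3' bias in the values of the galactose arrays was not tested. GAL2, the galactose permease gene, read 264 and 299.5 with galacturonic acid, 1127 and 1069.6 with galactose, and 7.0 to 8.6 in control. MFA1 and MFA2, which encode the a-factor pheromone of the MATa mating type, read at least 553.7 on all 7 arrays. STE2, a further marker of this mating type, was weaker. It read 393 and 401 with galacturonic acid, 335 and 36.9 with galactose, and 69.1, 128 and 80.0 in control.

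**Figure D1:**
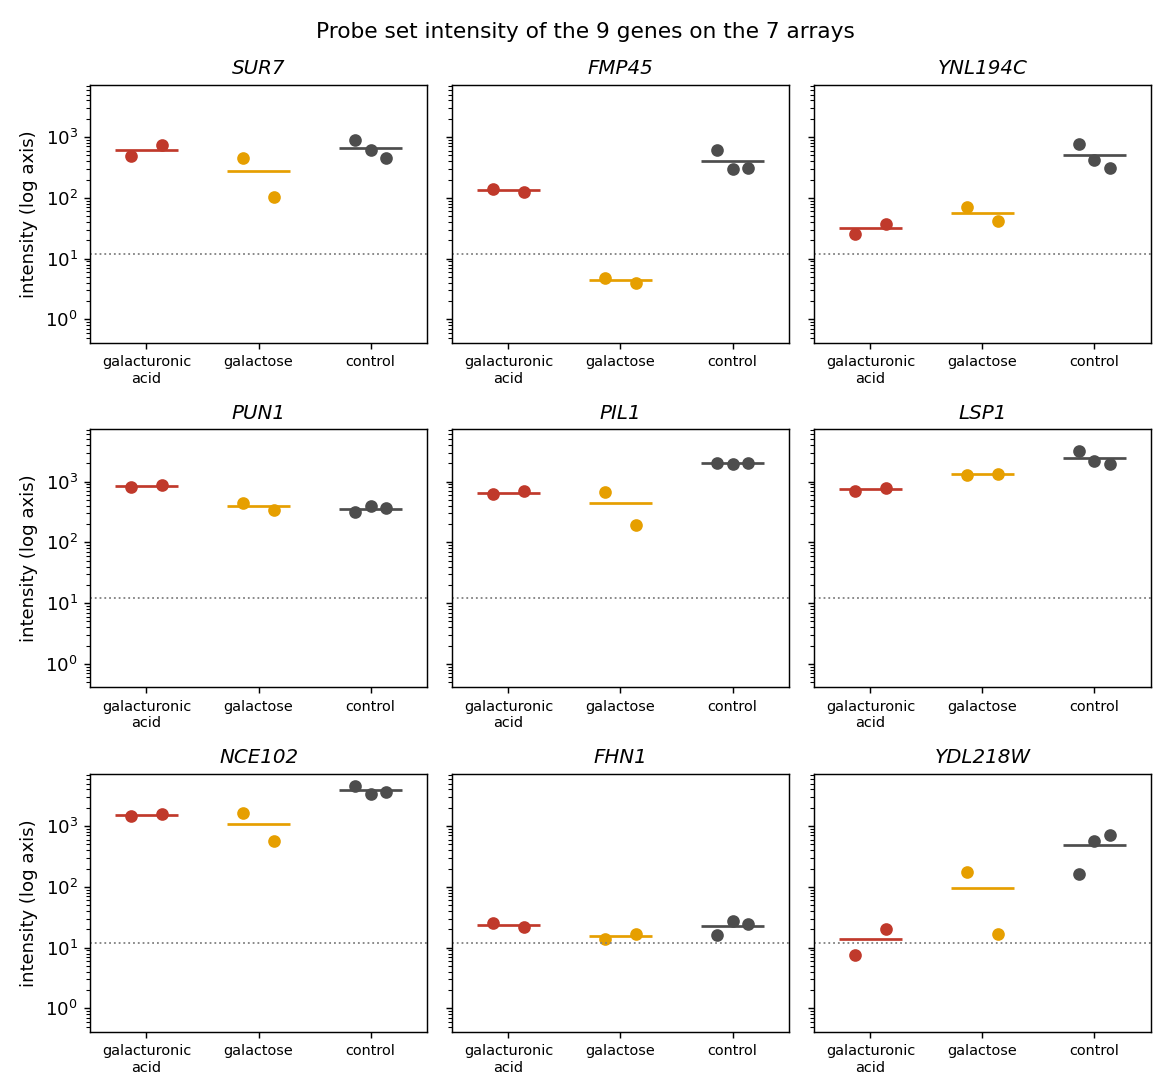
Probe set intensity (arbitrary units, log axis) of the 9 genes in galacturonic acid (2 arrays), galactose (2 arrays) and control (3 arrays). Points are arrays, horizontal lines are group means, and the dotted line is the floor of 12. YNL194C, FMP45, PIL1, LSP1 and NCE102 lie below all control arrays in both sugar groups, PUN1 lies above control with galacturonic acid, and FMP45 is under the floor on both galactose arrays.

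The scaffold genes PIL1 and LSP1 were read at lower levels with galacturonic acid than in control, and LSP1 passed the test. The arrays read RNA pooled over a culture, so fewer cells with a transcript and less transcript per cell cannot be told apart. PIL1 (YGR086C), which encodes the main scaffold protein, read 616 and 696 with galacturonic acid, 677 and 194 with galactose, and 2031, 1932.5 and 1993 in control. Both sugar groups lay below every control array, and galactose array 2 was the lowest of the 7. With galacturonic acid the log2 difference from control was -1.60 ± 0.48 (SE), a level 3.03-fold lower, with an adjusted p of 0.181 in limma over all arrays. In the fit of the galacturonic acid and control arrays alone its SE was 0.155 and the adjusted p 0.00741. With galactose PIL1 fell by 2.45 ± 0.48 (SE) on the log2 scale, 5.47-fold (adjusted p = 0.0263). The log2 difference was -1.55 when only galactose array 1 was kept (adjusted p = 0.0282), and the call was lost without any 1 control or galacturonic acid array.

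LSP1 (YPL004C), which encodes the second scaffold protein and a paralog of Pil1, read 699 and 798 with galacturonic acid, 1288 and 1327 with galactose, and 3150, 2207 and 1959.9 in control. The groups did not overlap, with galacturonic acid lowest, galactose between and control highest. LSP1 was 3.20-fold lower with galacturonic acid than in control (log2 difference -1.68 ± 0.30 SE, adjusted p = 0.0333). That call was lost without any 1 of the control or galacturonic acid arrays, where the difference was between -1.82 and -1.48. The galactose level was 1.83-fold below control and did not pass (-0.87 ± 0.30 SE, adjusted p = 0.0931), and the levels with galacturonic acid and galactose, neighbours in this order, did not differ beyond the threshold (adjusted p = 0.121).

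The shifts of PIL1 and LSP1 from their own control means were alike on the galacturonic acid arrays and apart on the galactose arrays. The PIL1 shift minus the LSP1 shift was 0.08 and 0.07 on the log2 scale with galacturonic acid, -0.66 and -2.51 with galactose, and -0.37, 0.08 and 0.29 on the control arrays. Both galactose arrays lay outside the control range, array 2 far more than array 1, and whether the probe sets of these paralogs read each other's transcript was not tested. No test was made of this difference.

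Among the tetraspan genes, YNL194C changed most with galacturonic acid and FMP45 most with galactose, while SUR7 showed no difference past the threshold and PUN1 was read higher with galacturonic acid. YNL194C encodes a Sur7 paralog found at eisosomes. It read 25.5 and 37.7 with galacturonic acid, 70.8 and 42.3 with galactose, and 759.9, 422 and 313 in control. All 4 arrays with an added sugar lay below all control arrays. YNL194C fell 15.0-fold with galacturonic acid (log2 difference -3.91 ± 0.46 SE, adjusted p = 0.00721) and 8.49-fold with galactose (-3.09 ± 0.46 SE, adjusted p = 0.014). The galacturonic acid call was lost without control array 2, or without galacturonic acid array 1 or 2 (adjusted p = 0.0610, 0.193 and 0.0981), and the galactose call without any 1 array other than galactose array 1.

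FMP45 (YDL222C), another Sur7 paralog, known for a role in sporulation and at the cell cortex, read 139.9 and 126 with galacturonic acid, 4.8 and 4.0 with galactose, and 615, 299.7 and 307 in control. The 3 groups did not overlap, and both galactose arrays were below the floor of 12, under which intensities were not told apart. FMP45 was at least 32.0-fold lower with galactose than in control (adjusted p = 0.000606), a bound that sets the control mean against the floor. This call held under every alternative tried, with an adjusted p of at most 0.0276. With galacturonic acid the level was 2.90-fold below control and did not pass (-1.53 ± 0.39 SE, adjusted p = 0.115). Between the sugars, FMP45 was at least 11.05-fold higher with galacturonic acid than with galactose (adjusted p = 0.00721), a call lost in the fit of those 4 arrays alone (adjusted p = 0.0869), with a replicate block (0.0583), without galacturonic acid array 1 or 2, and with the floor at 50.

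SUR7 (YML052W), the founding member of the family and the usual marker of the compartment, read 496 and 727 with galacturonic acid, 456 and 102 with galactose, and 906, 614 and 449.6 in control. The galacturonic acid arrays lay within the control range, and galactose array 2 lay far below every other array. The log2 difference from control was -0.07 with galacturonic acid, with a 95% interval from -1.46 to 1.32, which holds changes of over 2-fold in either direction. With galactose it was -1.55 ± 0.61 (SE, adjusted p = 0.114), and it was -0.47 with galactose array 1 alone (adjusted p = 0.480) and -2.63 with galactose array 2 alone (adjusted p = 0.00673). Against galactose, the galacturonic acid level differed by 1.48 ± 0.66 (SE, adjusted p = 0.146), and by 0.40 or 2.56 with galactose array 1 or 2 alone (adjusted p = 0.555 and 0.00750).

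PUN1 (YLR414C), a tetraspan gene known to be induced by nitrogen limitation, was the 1 gene of the 9 read above all control arrays with galacturonic acid. It read 805 and 886 with galacturonic acid, 447 and 340.0 with galactose, and 313, 404 and 364 in control. The galacturonic acid level was 2.36-fold the control level (log2 difference 1.24 ± 0.29 SE), with an adjusted p of 0.0843 over all arrays and 0.0199 when these arrays were fitted without galactose. Galactose and control overlapped (log2 difference 0.12, 95% interval -0.54 to 0.79). Against galactose, the galacturonic acid level was 2.16-fold higher, with an adjusted p of 0.0522.

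NCE102 and FHN1 encode paralogs of the compartment's membrane and differed in their readings. NCE102 (YPR149W) read 1471 and 1605 with galacturonic acid, 1615 and 568 with galactose, and 4621, 3366 and 3682 in control. Every array with an added sugar lay below every control array. NCE102 fell 4.02-fold with galactose (-2.01 ± 0.44 SE, adjusted p = 0.0354). Without galactose array 2 the log2 difference was -1.26 and did not pass (adjusted p = 0.0592). Leaving out any 1 control or galacturonic acid array ended the call too. With galacturonic acid it was -1.33 ± 0.44 (SE, adjusted p = 0.222) over all arrays, while the SE was 0.20 and the adjusted p 0.0229 in the fit without the galactose arrays. FHN1 (YGR131W) read 25.4 and 21.8 with galacturonic acid, 14.0 and 17.0 with galactose, and 16.4, 27.6 and 24.5 in control. All of its values were close to the floor, the groups with an added sugar overlapped control, and its log2 difference from control was 0.08 with galacturonic acid (95% interval -0.57 to 0.73) and -0.53 with galactose (-1.18 to 0.12).

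YDL218W encodes a protein with no assigned molecular function. It read 7.7 and 19.9 with galacturonic acid, 174 and 17.0 with galactose, and 162, 563 and 721 in control. Its spread was the widest of the 9 genes, with control array 1 below galactose array 1 and the galactose arrays far apart. YDL218W fell 26.1-fold with galacturonic acid on the floored values (-4.71 ± 0.97 SE, adjusted p = 0.0487), the largest fall of all tested genes in that comparison. Array 1 of galacturonic acid was below the floor. The call was lost without any 1 of the control or galacturonic acid arrays, where the log2 difference was between -5.37 and -4.29, and YDL218W passed in 9 of the 19 alternatives run. With galactose the difference was -2.89 ± 0.97 (SE, adjusted p = 0.0854), and -1.21 or -4.57 when only galactose array 1 or 2 was kept.

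**Figure D2:**
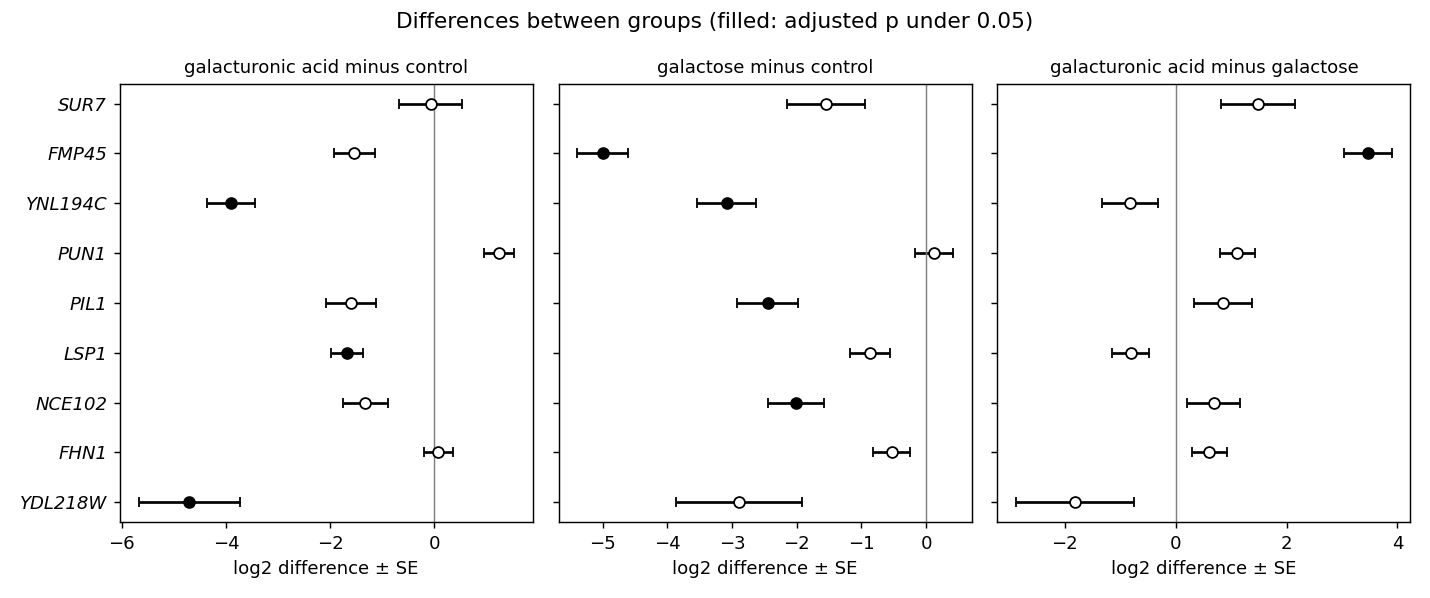
Log2 differences between group means of the 9 genes with the SE of the limma fit, for galacturonic acid minus control, galactose minus control and galacturonic acid minus galactose. Filled points passed an adjusted p under 0.05 over all 5220 genes: YNL194C, LSP1 and YDL218W in the first comparison, FMP45, YNL194C, PIL1 and NCE102 in the second, and FMP45 in the third.

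Because the 9 genes were chosen with earlier results of these data known, the counts for all comparisons only describe them. Counted over the set, 3 of the 9 genes fell with galacturonic acid and 0 rose. Over all genes tested, 2.32% passed in this comparison, 1.44% as lower and 0.881% as higher. At an unadjusted p under 0.05, 6 of the 9 were lower and 1, PUN1, was higher, where 6.78% of all genes were lower and 5.69% higher at that threshold. In 6 genes both galacturonic acid arrays lay below all control arrays, against 21.1% of all genes, and in 1 gene above them, against 20.0%. The median log2 difference of the 9 genes was -1.53, and that of all genes -0.01. In the fit of the 2 groups alone 5 of the 9 were lower and 1 higher, with PIL1, NCE102 and PUN1 added, and 4.90% of all genes passed there. Without any 1 control or galacturonic acid array at most 1 of the 9 passed, and at most 0.460% of all genes.

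With galactose, 4 of the 9 genes fell and 0 rose, where 9.06% of all genes passed, 4.31% as lower and 4.75% as higher. At an unadjusted p under 0.05, 7 were lower and 0 higher, where 12.8% of all genes were lower and 21.9% higher at that threshold, 34.7% in all. Both galactose arrays lay below all control arrays in 5 genes, against 16.4% of all genes, and above them in 0, against 31.4%. The median log2 difference of the 9 was -2.01, and that of all genes 0.22. The fit of these 2 groups alone called FMP45 only, as did leaving out any 1 control or galacturonic acid array, and in these fits at most 0.728% of all genes passed. Without galactose array 1, 6 of the 9 passed, beside 41.1% of all genes. Without array 2 it was 2, FMP45 and PIL1, beside 3.66% of all genes. The galacturonic acid and galactose comparisons share the same control arrays, so their values are given side by side and are not independent of each other.

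Between the added sugars, 1 of the 9 genes passed, FMP45 as higher with galacturonic acid, where 13.1% of all genes passed, 5.23% as higher and 7.91% as lower. Both galacturonic acid arrays lay above both galactose arrays in 4 genes (SUR7, FMP45, PUN1 and FHN1), against 22.6% of all genes, and below them in 2 (YNL194C and LSP1), against 41.1%. PIL1 and NCE102 overlapped: galactose array 1 read close to the galacturonic acid arrays in both genes, and array 2 lower. The log2 difference was 0.85 for PIL1 and 0.68 for NCE102, and -0.048 and -0.072 with galactose array 1 alone. With galactose array 2 alone it was 1.75 for PIL1 and 1.44 for NCE102, and both passed (adjusted p = 0.00236 and 0.00872), beside 44.6% of all genes.

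Genes of proteins that are found at eisosomes or act on them were listed apart from the 9. Of 13 such genes, all tested, 1 fell with galacturonic acid and 0 rose, beside the 1.44% and 0.881% of all genes, and 3 had an unadjusted p under 0.05, beside 12.5% of all genes. Their median log2 difference was -0.45, against -0.01 over all genes. The gene that passed was YGR130C, which encodes a protein of the eisosome periphery. It read 32.8 and 50.1 with galacturonic acid, 135 and 223 with galactose, and 149, 141 and 154 in control (galacturonic acid minus control -1.86 ± 0.36 SE, adjusted p = 0.0393). This call passed in 11 of 19 alternatives and was lost without any 1 control or galacturonic acid array (adjusted p of 0.147 to 0.485). EIS1, needed for normal eisosome assembly, read 86.8 and 141 with galacturonic acid, 310.4 and 272 with galactose, and 476, 336 and 280.1 in control, with a difference of -1.69 ± 0.36 (SE) that did not pass (adjusted p = 0.0569). Both EIS1 and YGR130C had galacturonic acid arrays below every galactose and control array. YGR130C was lower with galacturonic acid than with galactose (-2.10 ± 0.39 SE, adjusted p = 0.0198), and so was SLM1 (-1.56 ± 0.40 SE, adjusted p = 0.0425), whose product moves between eisosomes and TORC2. These calls passed in 12 of 20 and 6 of 19 alternatives, and without 1 array they held only where galactose array 1 or, for YGR130C, control array 1 was the one left out. The kinase genes PKH1 and PKH2 had differences from control of -0.27 and -0.45 with galacturonic acid, and 0.45 and 0.93 with galactose, and SEG1, which encodes an eisosome assembly factor, of -0.39 and -0.82. None of these 6 values passed. Between the sugars 2 of the 13 genes were lower with galacturonic acid and 1 higher, beside 7.91% and 5.23% of all genes. The higher one was MDG1 (2.11 ± 0.43 SE, adjusted p = 0.0241), where galactose array 2 was below the floor. The MDG1 call passed in 7 of the 12 alternatives that kept all arrays.

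With galactose 2 of these 13 genes fell and 0 rose, beside 4.31% of all genes that fell and 4.75% that rose, with a list median of -0.19 against 0.22 over all genes. At an unadjusted p under 0.05 there were 4 of the 13, beside 34.7% of all genes, so that count is near the share over all genes. MDG1 read 22.2 and 5.9 with galactose against 124, 94.9 and 82.3 in control (-2.60 ± 0.39 SE, adjusted p = 0.0144). PST2, a flavodoxin-like protein gene, read 685 and 128 with galactose against 2230, 2154 and 1897 in control (-2.82 ± 0.60 SE, adjusted p = 0.0335), and its difference was -1.61 or -4.03 with galactose array 1 or 2 alone. Each call passed in 10 alternatives, of 18 for MDG1 and 19 for PST2, and was lost without any 1 control or galacturonic acid array. Both genes were lower on galactose array 2 than on array 1, as were all of the 9 genes except LSP1 and FHN1, with FMP45 under the floor on both.

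**Figure D3:**
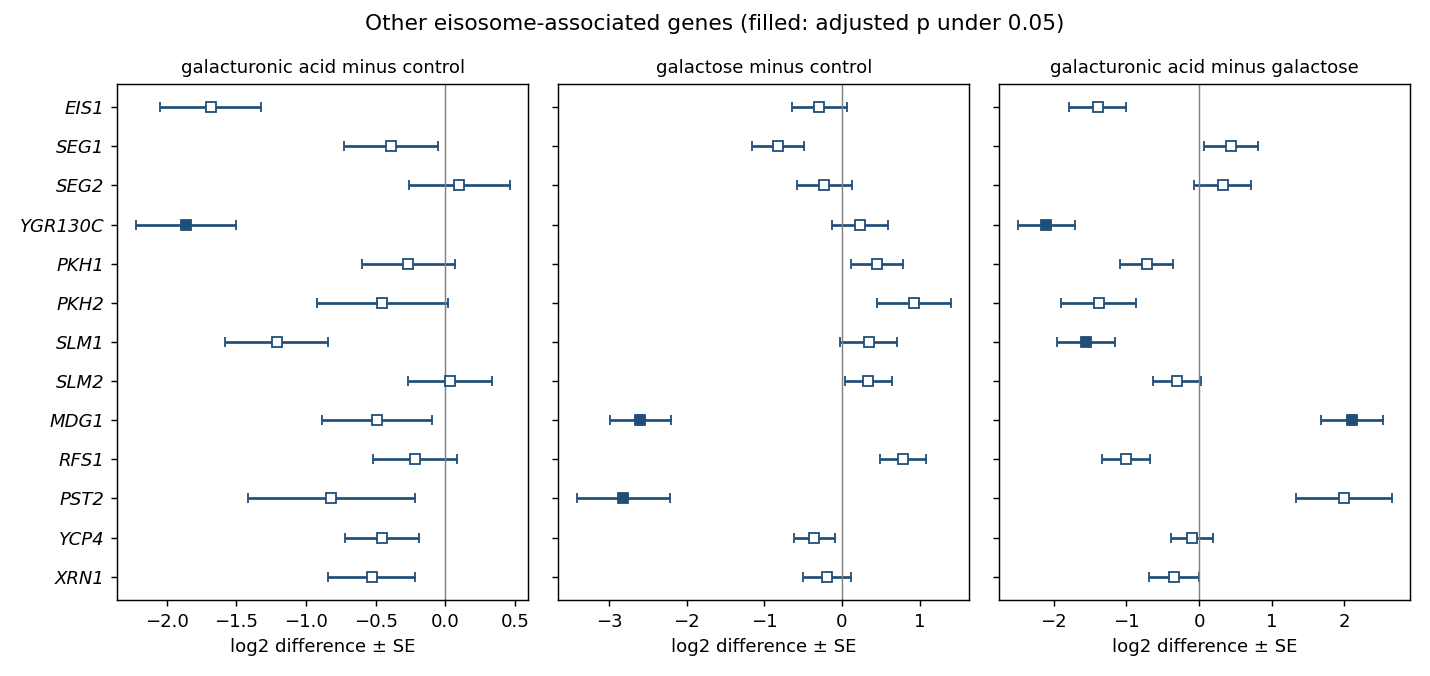
Log2 differences with the SE of the limma fit for the 13 other genes of eisosome-associated proteins, in the same 3 comparisons. Filled squares passed an adjusted p under 0.05: YGR130C with galacturonic acid against control, MDG1 and PST2 with galactose against control, and YGR130C, SLM1 and MDG1 between the sugars.

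The transporters that gather in the compartment did not pass against control with either addition. For the 5 genes CAN1, FUR4, TAT2, MUP1 and LYP1 the median log2 difference was 0.55 with galacturonic acid and -0.09 with galactose. In these comparisons limma called 0 of 5, beside 2.32% and 9.06% of all genes. At an unadjusted p under 0.05 there were 1 and 0, beside 12.5% and 34.7% of all genes. With only 5 genes, 0 calls is near the shares over all genes. TAT2, a tryptophan permease gene, read 77.5 and 79.7 with galacturonic acid, 35.3 and 7.5 with galactose, and 20.9, 27.0 and 35.9 in control. It was higher with galacturonic acid than with galactose (adjusted p = 0.0438), where galactose array 2 was below the floor. The TAT2 difference between the sugars was 1.93, and 1.15 with galactose array 1 alone, and its call was lost without any 1 array other than galactose array 1. Among 23 genes of sphingolipid synthesis and TORC2 signalling, 21 were tested. With galacturonic acid 0 passed, beside 2.32% of all genes, and 1 had an unadjusted p under 0.05, beside 12.5%. With galactose 1 fell, beside 4.31% of all genes, and 8 had an unadjusted p under 0.05, beside 34.7%. These counts are near or under the shares over all genes. The gene that fell was the kinase gene YPK2. It read 3.1 and 0.5 with galactose, against 39.1, 25.1 and 27.0 in control (adjusted p = 0.0311), so both galactose arrays were below the floor. The YPK2 call passed in 9 of 17 alternatives and was lost without any 1 array other than galactose array 1. YPK2 was also higher with galacturonic acid than with galactose (1.75 ± 0.30 SE, adjusted p = 0.0157). That call passed in 8 of the 11 alternatives that kept all arrays. PMA1, the proton pump gene of the neighbouring membrane compartment, read 2042 and 779 with galacturonic acid, 801 and 53.3 with galactose, and 973, 1087 and 811 in control, with no comparison past the threshold.

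Of 5 other genes for small tetraspan membrane proteins, 4 were tested. FAT3 (a gene linked to fatty acid uptake) read 11.2 and 21.3 with galacturonic acid, 203 and 283 with galactose, and 467, 264 and 209 in control. It was lower with galacturonic acid than in control (-4.21 ± 0.45 SE, adjusted p = 0.00488) and than with galactose (adjusted p = 0.00721), and 1 of its galacturonic acid arrays was below the floor. Each call passed in 15 alternatives, of 19 and 20, and both were lost without galacturonic acid array 1 or 2, the first also without control array 2. RIM9, of the alkaline pH signalling pathway, read 33.5 and 32.0 with galacturonic acid, 0.3 and 0.6 with galactose, and 26.2, 23.2 and 22.8 in control, and fell with galactose (adjusted p = 0.0362), where both arrays were below the floor. That call passed in 8 of 17 alternatives and was lost without any 1 array other than galactose array 1. RIM9 was also higher with galacturonic acid than with galactose (1.45 ± 0.24 SE, adjusted p = 0.0149). This second call passed in 8 of the 11 alternatives that kept all arrays. TOS7 had galacturonic acid values of 174 and 172 against 96.3, 94.3 and 76.8 in control and did not pass (adjusted p = 0.54). INA1, the neighbour of PUN1 on the chromosome, had a difference of 0.13 with galacturonic acid, against 1.24 for PUN1. It read 14.7 and 15.7 with galacturonic acid and 9.8, 17.4 and 12.8 in control. These values are close to the floor, so the difference does not show whether INA1 changed with PUN1.

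The genes most like each of the 6 genes that passed somewhere were found by the root mean square difference of their log2 shifts from control over the 7 arrays. That is a description of these arrays. For YNL194C the nearest of all tested genes was YNL195C, at 0.66 log2 units against a median of 2.80 over all genes, followed by HBT1 at 0.75 and the sporulation gene SPS100 at 0.81. For YDL218W SPS100 was nearest at 0.91, followed by YCL048W-A at 1.16 and the water channel gene AQY1 at 1.19. PIL1 was nearest to ERG3 (sterol desaturase) and WTM1, both at 0.28, and FIT3 at 0.30. LSP1 was nearest to ATG34 at 0.23, ATG41 at 0.24 and PGM2 (phosphoglucomutase) at 0.25, and NCE102 to YMR206W at 0.23, POT1 (peroxisomal thiolase) at 0.27 and YBR090C at 0.28. The nearest genes of FMP45 were YPL247C at 1.05, YNL190W at 1.08 and VVS1 at 1.10. FMP45 is set to the floor on both galactose arrays, where all of these genes were also far below control. On the galacturonic acid arrays YNL190W shifted by 0.30 and 0.36 and FMP45 by -1.46 and -1.61, while YPL247C and VVS1 shifted down. PIL1 and LSP1 had no gene in common among their nearest 3. The median over all genes was 1.23 for LSP1, 1.51 for NCE102, 1.78 for PIL1, 2.96 for FMP45 and 3.22 for YDL218W. The distances of different genes are therefore not on a common scale.

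YNL195C is also the next protein-coding gene to YNL194C on the chromosome, by the RefSeq order of assembly R64, and HBT1 is the next one to FMP45. YNL195C read 48.3 and 57.9 with galacturonic acid, 106.5 and 102 with galactose, and 880.1, 393 and 312 in control. It fell in both comparisons with control (-3.17 ± 0.45 SE with galacturonic acid, adjusted p = 0.0134, and -2.19 ± 0.45 SE with galactose, adjusted p = 0.0304). HBT1, which encodes a protein of shmoo formation, read 172 and 196 with galacturonic acid, 229 and 78.2 with galactose, and 1345, 1074 and 1163 in control. It also fell in both (-2.70 ± 0.44 SE, adjusted p = 0.0250, and -3.15 ± 0.44 SE, adjusted p = 0.0130). The HBT1 calls were lost without any 1 control or galacturonic acid array. The YNL195C call with galacturonic acid was lost without any 1 of these arrays other than control array 1, and that with galactose without any 1 array other than galactose array 1. YGR130C, the eisosome gene given above, is the neighbour of FHN1, and there the gene with a fall with galacturonic acid was YGR130C while FHN1 stayed near the floor. Of the other neighbours tested, none passed with galacturonic acid against control. CDC13, on the other side of FMP45, was lower with galactose than in control (-1.15 ± 0.29 SE, adjusted p = 0.0460) and higher with galacturonic acid than with galactose (1.59 ± 0.31 SE, adjusted p = 0.0220), with both galactose arrays below the floor. These calls passed in 6 of 17 and 10 of 18 alternatives, and without 1 array they held only where galactose array 1 or, for the second, control array 1 was the one left out.

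**Figure D4:**
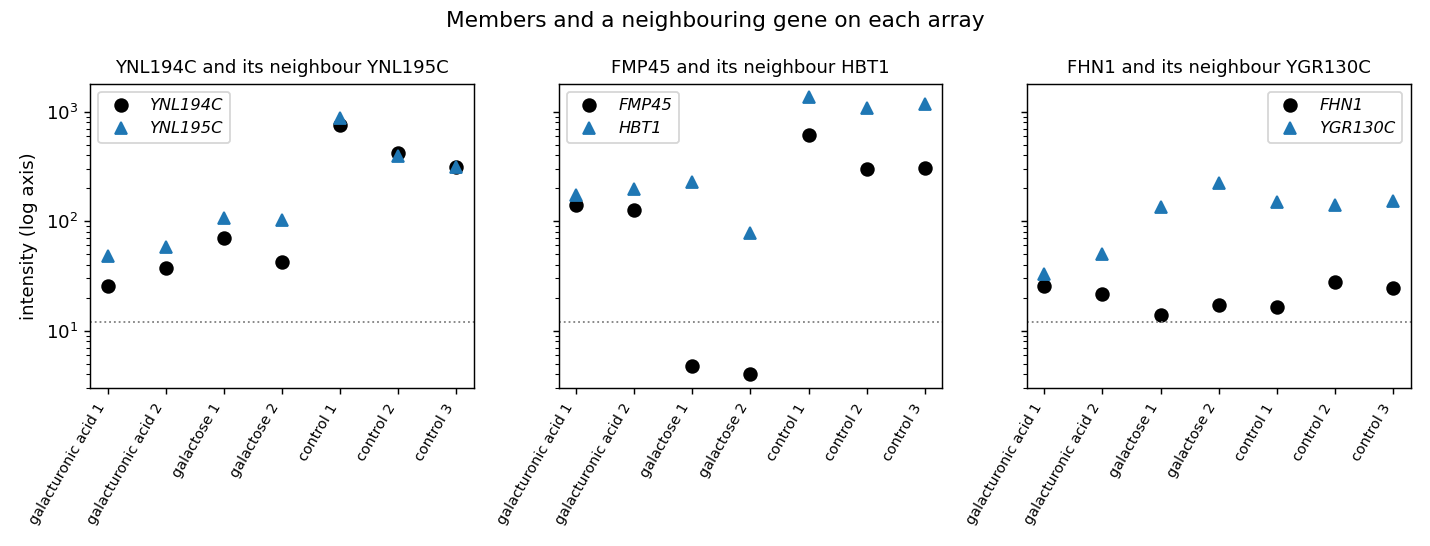
Intensity (log axis) on each of the 7 arrays for YNL194C and YNL195C, FMP45 and HBT1, and FHN1 and YGR130C, pairs of neighbouring genes chosen after their values were seen. The dotted line is the floor of 12. YNL194C and YNL195C both lie below all control arrays on the 4 other arrays, while FMP45 is below the floor on the galactose arrays, where HBT1 reads 229 and 78.2.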

How the data were processed

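The deposited table holds an intensity for each of 9335 probe sets, on a linear scale, made by the authors with GCOS 1.2 per the submitters' processing notes. Its signal algorithm is not given in the sources used here. Each array's mean after trimming 2% at both ends was 150.1, so arrays were taken as already scaled. Any 2 arrays had identical values in at most 2.05% of probe sets.

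Genes were named through the 6504 probe sets with a single annotated gene, each found in RefSeq (R64). Genes with several were read from the one with the highest mean. Intensities under 12 were set to this floor before log2. The model took 5220 of 5656 genes, those over the floor on 2 or more arrays, and left out 436. It was fitted in limma 3.58.1 (R 4.3.3) to all 7 arrays with a mean for each group, leaving 4 degrees of freedom, and moderated by eBayes with a trend. P-values were adjusted over the 5220 genes by Benjamini-Hochberg, with 0.05 as the threshold, and any adjusted p without another named fit is from this one. A fold is a bound against the floor if no array of the lower group exceeded it. The code was tested on simulated data.

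The 9 genes and the other lists were chosen with earlier results of these data known. Genes named are the 9, listed genes past the threshold and other listed genes of the eisosome, transporter and tetraspan lists, the 3 nearest by shift from control for each of the 9 that passed, chromosomal neighbours, PMA1 and GAL2. MFA1, MFA2 and STE2 were added as a check of the strain after their values were seen. Replicates were numbered in deposit order. Alternatives were other floors, scalings, filters, probe set rules, spread estimates and sample subsets, and leaving out each array. Sequences of proteins, promoters and probes were not used here.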

Additional observations from a re-analysis of the deposited data

How the results depend on the processing

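How many of the 9 genes passed depended on the fit, as did the share of all genes tested that passed. With galacturonic acid against control 3 passed in the fit of all arrays, 0 with a floor of 50, 1 without a filter on low genes, 6 in the fit of the 2 groups alone and 7 with array weights, and leaving out 1 array gave 0 to 6, the highest without either galactose array. With galactose against control 4 passed, 2 with a floor of 50 or without a filter, 1 with array weights or in the fit of the 2 groups alone, and 1 to 6 with 1 array left out. With galacturonic acid against galactose 1 passed, 2 after scaling to the 75th percentile or with every probe set on its own, 0 in the fit of the 2 groups alone and 0 to 5 with 1 array left out. A replicate block on the number ending the source name of the galacturonic acid and galactose arrays also gave 0. That number may belong to the dilution rate and not to a replicate, and the pairing was not otherwise checked. Over all genes tested, 121, 473 and 686 passed in the 3 comparisons, and between 1 and 774, 16 and 2145, and 0 and 2327 under the alternatives. With galacturonic acid against control 1.23% of all genes passed with a floor of 50 and 1.03% without a filter. The 2 groups alone gave 4.90%, and array weights 14.8%. With galactose against control these shares were 4.21%, 3.15%, 0.728% and 0.307%, in the same order. Between the sugars the share was 10.2% after scaling and 15.2% with every probe set on its own. There the 2 groups alone gave 0%, and the block 0.230%. The cause of these changes was not tested.

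No value with a turned sign passed the threshold. With array weights the galacturonic acid difference from control was 0.026 for SUR7 and -0.060 for FHN1, and with 1 array left out it ranged from -0.34 to 0.21 and from -0.14 to 0.23. Leaving out 1 array, PUN1 ranged from -0.074 to 0.32 with galactose against control, and PIL1 from -0.048 to 1.75 and NCE102 from -0.072 to 1.44 with galacturonic acid against galactose. With a floor of 50 FHN1 has no value, since all of its arrays lie below it, and under the filter at the median level it was not tested. A group left with 1 array was assumed to vary like the others. The 19 calls on genes of the other lists and on neighbours were run under the same alternatives, a choice made after seeing the data. None changed sign, but every one was lost under some alternatives: they passed in 6 of 19 (SLM1) to 15 of 19 (FAT3 with galacturonic acid against control) alternatives, and each was lost without at least 1 array.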
